A study of Mus musculus with 6 samples.

Results

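The receptor genes of pain-sensing and itch-sensing neurons described here, 10 in number, were measured in the sciatic nerves of Dok6 mutant and control mice. They are the Mas-related G protein-coupled receptor genes Mrgprd, Mrgprx1 and Mrgpra3, the opioid receptor genes Oprm1 and Oprd1, the prostacyclin receptor gene Ptgir, the neuropeptide FF receptor gene Npffr2, the lysophosphatidic acid receptor gene Lpar5, the purinergic receptor gene P2ry2 and the serotonin receptor subunit gene Htr3b. These 10 of the 54532 genes in the count table were picked by name after their levels in mutant and control nerves were known. The difference between the genotypes in these 10 genes is therefore a description of what chose them, and the fit over all genes, in which they were included, is no test of it. Tests were kept for other receptors, ligands and markers, although those lists too were drawn up with earlier results of these data known.

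RNA was sequenced from sciatic nerves collected on postnatal day 3, with 3 libraries of wild-type mice (Control 1 to 3) and 3 of Dok6 knockout mice (Dok6 mutant 1 to 3). The mutants lack exon 3 of Dok6, an adaptor protein of neurotrophin receptors, in the whole body, because mice with loxP-flanked Dok6 were crossed to EIIA-cre mice, in which the recombinase acts from the early embryo on. All animals were on a C57BL/6 background, and sexes were not told apart. The labels give the groups by genotype alone, and whether the mice sequenced still carried the Cre transgene is not given in the sources used here. The comparison asks how gene expression in the nerve is altered when Dok6 is missing.

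In the mouse, small dorsal root ganglion (DRG) neurons carry signals of pain and itch from skin and deeper tissues to the spinal cord. Different subsets of these neurons are told apart by their receptors, with Mrgprd in the nonpeptidergic nociceptors of the skin and Mrgpra3 and Mrgprx1 in itch neurons. Most products of these genes are G protein-coupled receptors, of which the opioid receptors dampen the neuron and the prostacyclin and lysophosphatidic acid receptors tend to sensitize it, while Htr3b encodes a subunit of an ion channel. The sciatic nerve holds the axons of DRG neurons and not their cell bodies, together with Schwann cells, connective tissue and vessels.

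The libraries held between 17699904 and 18678170 counts, so that 3 counts in a library, taken here as the floor of detection, came to between 0.156 and 0.172 CPM (counts scaled to a common library size with TMM factors). Dok6 was at 17.8, 11.9 and 17.5 CPM in the controls and at 7.26, 5.78 and 7.15 CPM in the mutants, below every control in every mutant (log2 fold change -1.21, SE 0.20, adjusted p = 0.0118 in edgeR's quasi-likelihood test). The label of the tissue was checked against marker lists. In the controls, 11 Schwann cell markers summed to between 105 and 191 CPM, whereas 10 markers of central neurons summed to between 1886 and 2406 CPM and 10 markers of central glia to between 1924 and 2602 CPM. The lists are not exclusive, since Snap25 and Syt1 among the former are general neuronal genes and Sox10 and S100b among the Schwann cell markers are shared with central glia. Slc32a1, the vesicular transporter of GABA and glycine, and Gfap, an astrocyte filament protein, stood at 159 to 181 CPM and 227 to 489 CPM in the controls. In mutants 1, 2 and 3 the Schwann cell markers summed to 292, 1574 and 224 CPM and the central glia markers to 3224, 3231 and 1759 CPM, while the central neuron markers summed to between 1799 and 1869 CPM. The listed markers of central tissue thus exceeded those of Schwann cells in every control and every mutant library, which goes against the labelled tissue. Every value below is that of the library as labelled.

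The starts of the genes are shown first, since the receptors were chosen for a common rise in the mutants and RUNX1 is a transcription factor known to act in nonpeptidergic nociceptors. The 250 bases upstream of the transcription start were read from RefSeq promoters (GRCm38.p6) for the 4 receptor genes whose mutant libraries lay furthest above the controls among those with a window. They run 5' to 3' on the strand of the gene, and capitals mark a RUNX core (TGTGGT or TGCGGT, searched on both strands, with overlapping matches allowed).

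Mrgprd, chr7:145314585-145314834, plus strand: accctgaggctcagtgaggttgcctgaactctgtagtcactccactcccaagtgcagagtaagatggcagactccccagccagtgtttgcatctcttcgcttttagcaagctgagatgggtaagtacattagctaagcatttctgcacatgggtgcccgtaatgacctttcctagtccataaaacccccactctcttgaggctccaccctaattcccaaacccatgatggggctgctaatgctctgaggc
Mrgprx1, chr7:48027598-48027847, minus strand: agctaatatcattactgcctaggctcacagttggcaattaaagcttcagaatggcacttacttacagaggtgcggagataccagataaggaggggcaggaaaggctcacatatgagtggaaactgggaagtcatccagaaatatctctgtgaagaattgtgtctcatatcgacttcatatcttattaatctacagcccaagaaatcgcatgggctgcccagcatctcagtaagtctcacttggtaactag
Ptgir, chr7:16906240-16906489, plus strand: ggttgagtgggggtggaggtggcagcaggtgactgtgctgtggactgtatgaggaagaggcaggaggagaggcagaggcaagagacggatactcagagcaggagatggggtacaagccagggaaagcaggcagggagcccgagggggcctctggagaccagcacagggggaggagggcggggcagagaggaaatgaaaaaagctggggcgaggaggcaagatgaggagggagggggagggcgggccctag
Htr3b, chr9:48964991-48965240, minus strand: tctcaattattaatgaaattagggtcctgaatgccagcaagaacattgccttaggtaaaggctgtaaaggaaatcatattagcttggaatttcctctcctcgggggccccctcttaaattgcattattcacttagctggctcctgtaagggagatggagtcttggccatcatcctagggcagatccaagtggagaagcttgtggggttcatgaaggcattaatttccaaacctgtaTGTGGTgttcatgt

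Of these windows only that of Htr3b held a core, between 14 and 9 bases before the start. Among the 13 windows of the 9 receptor genes that had any (several genes have more than 1 annotated start), 3 held a core (23.1%), and these were the window of Htr3b and both windows of Lpar5. The same words were in 18.6% of the 32851 windows of all genes. The base composition of the windows differed widely, from 43.6% G and C before Mrgprx1 to 71.2% in 1 window of P2ry2, and it was higher still before Oprd1. A core in such a window is a match of letters only.

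Among the Mas-related receptors, Mrgprd and Mrgprx1 were the receptor genes with the highest levels per length in the mutant nerves. Mrgprd, the receptor for beta-alanine on nonpeptidergic nociceptors (ENSMUSG00000051207, chromosome 7, 145314835 to 145324086), had 0, 2 and 1 counts in the controls and 94, 319 and 159 counts in the mutants. Its controls were all under the floor and the mutant libraries well above it, at 10.2 ± 6.46 CPM (SD, n = 3). The pooled mutant level was 177 times that of the controls, with a 95% counting interval from 60.2 to 860 that is wide because the controls held only 3 counts together. Mrgprx1, which marks itch neurons and answers to peptide pruritogens (ENSMUSG00000070552, chromosome 7, 48020971 to 48027597), had 7, 15 and 4 counts in the controls against 206, 532 and 542 in the mutants. In CPM, its level was 0.497 ± 0.326 (SD, n = 3) in controls and 22.8 ± 10.5 (SD, n = 3) in mutants, and the lowest mutant library was 12.4 times the highest control. The pooled ratio for Mrgprx1 was 45.6, with a counting interval from 31.0 to 70.1. Mutants 2 and 3 were alike in Mrgprx1, and the highest mutant was 2.72 times the lowest, mutant 1.

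Mrgpra3, the receptor for chloroquine on itch neurons (ENSMUSG00000078698, chromosome 7, 47588950 to 47601372), had no count in any control library and 14, 35 and 0 counts in the mutants. Mutants 1 and 2 were above the floor and mutant 3 was not, so the groups overlapped. Its mean over the mutants, 0.878 ± 0.964 CPM (SD, n = 3), was at least 5.11-fold higher than the floor of 3 counts per control library, and the filter on low counts removed the gene from the fit. Mutant 3, where Mrgpra3 was not detected, was at 28.7 CPM in Mrgprx1, close to mutant 2 at 29.0 and far above mutant 1 at 10.7, where Mrgpra3 was found. The ratio of Mrgprx1 to Mrgprd counts likewise ranged from 1.67 in mutant 2 to 3.41 in mutant 3. The transcript most like Mrgprx1 was Gm18348, with 92.4% identity over 820 bases and a single count in all 6 libraries. The transcript most like Mrgpra3 was Mrgpra4, with 88.8% identity over 1067 bases and at most 2 counts in a library. For none of the 10 genes did the annotation hold a second gene matching along 200 bases or more with 95% of letters shared.

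The opioid receptors differed least between the genotypes. Oprm1, the mu receptor through which morphine acts (ENSMUSG00000000766, chromosome 10, 6758506 to 7038198), was at 2.30, 1.66 and 0.743 CPM in controls and 3.11, 1.69 and 3.07 CPM in mutants. Mutant 2 lay within the range of the controls, so the groups overlapped. The pooled ratio for Oprm1 was 1.68 (counting interval 1.28 to 2.23). Exons of Oprm1 overlap those of Ipcef1 on the opposite strand, which had between 283 and 562 counts per library against 13 to 60 for Oprm1, and whether reads were counted by strand is not given in the sources used here. Oprd1, the delta receptor for enkephalins (ENSMUSG00000050511, chromosome 4, 132110726 to 132144486), was at 4.19, 3.90 and 5.78 CPM in controls and 6.07, 7.20 and 8.58 CPM in mutants. Its groups did not overlap, but the lowest mutant was only 1.05 times the highest control, and the pooled ratio was 1.57 (counting interval 1.34 to 1.85). These were also the receptor genes with the most counts in the controls, where Oprd1 gave between 50.0% and 69.7% of the summed CPM of the 10 genes.

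The receptors for lipid mediators were low in the controls. Ptgir, the prostacyclin receptor that sensitizes nociceptors in inflammation (ENSMUSG00000043017, chromosome 7, 16906490 to 16910905), had 0, 2 and 1 counts in controls and 27, 71 and 92 counts in mutants. All 3 controls were under the floor, and the mutants were at 3.38 ± 1.79 CPM (SD, n = 3), with mutant 1 the lowest. The pooled ratio was 58.7, with a counting interval from 19.8 to 287 set by the 3 control counts. Lpar5, a receptor for lysophosphatidic acid (ENSMUSG00000067714, chromosome 6, 125067920 to 125082472), had 5, 4 and 3 counts in controls against 17, 34 and 11 in mutants. The lowest mutant was 2.03 times the highest control in CPM, and the pooled ratio was 4.79 (counting interval 2.56 to 9.77). For Lpar5 mutant 3 was the lowest of the mutants, whereas for Ptgir it was the highest.

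Npffr2, a receptor for neuropeptide FF and related RFamide peptides that modulate opioid action (ENSMUSG00000035528, chromosome 5, 89527429 to 89583740), had 1, 2 and 4 counts in controls and 19, 14 and 34 in mutants. The pooled ratio was 8.87 (counting interval 4.08 to 22.9), and the groups did not overlap. P2ry2, a receptor for extracellular ATP and UTP (ENSMUSG00000032860, chromosome 7, 100996568 to 101012866), was at 0.689, 0.688 and 1.03 CPM in controls and 2.49, 8.40 and 3.92 CPM in mutants. Its lowest mutant was 2.42 times the highest control, and mutant 2, the highest, was 3.37 times mutant 1. Htr3b, a subunit that joins Htr3a in the serotonin-gated cation channel (ENSMUSG00000008590, chromosome 9, 48935008 to 48964990), had 2, 2 and 0 counts in controls and 29, 87 and 56 counts in mutants. All controls of Htr3b were under the floor, and its pooled ratio was 39.9 (counting interval 15.3 to 148). Coordinates are those of GENCODE M21 on GRCm38, and 5 of the 10 genes, Mrgprd, Mrgprx1, Mrgpra3, Ptgir and P2ry2, lie on chromosome 7. Counting intervals cover counting error only and not the spread between nerves.

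**Figure D1:**
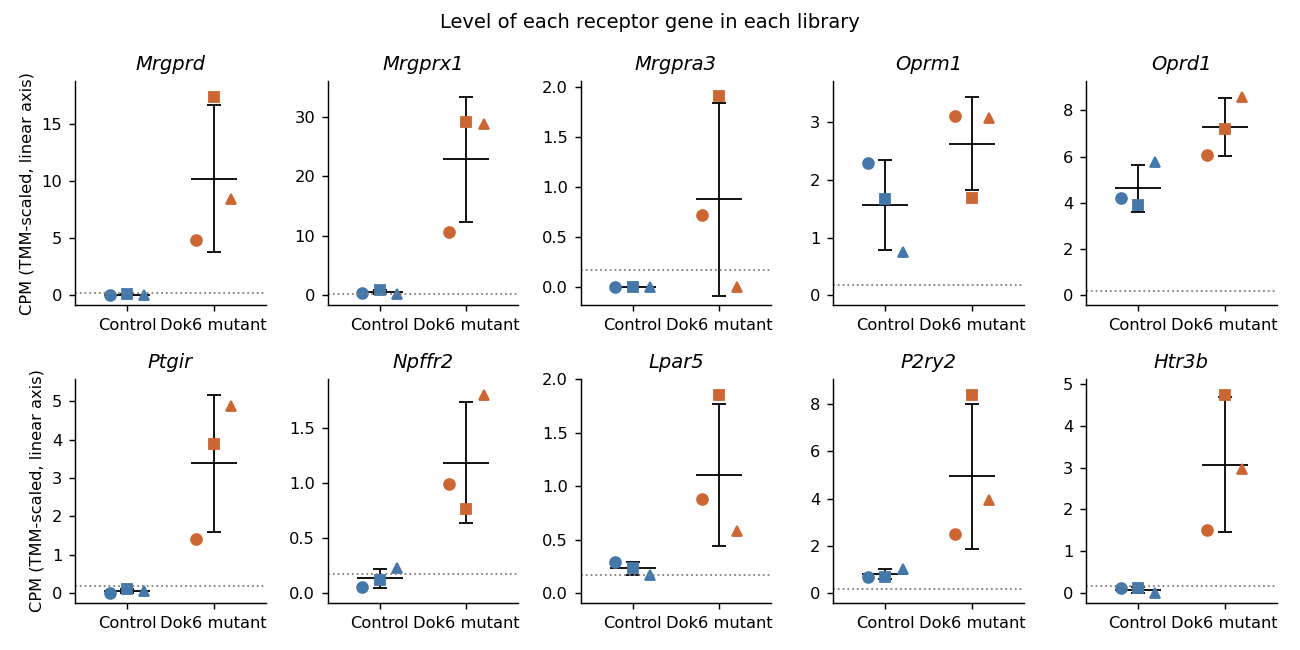
Level of each receptor gene in CPM on a linear axis, 1 panel per gene, with control libraries in blue and Dok6 mutant libraries in orange (circle, square and triangle for replicates 1, 2 and 3), the mean as a bar with 1 SD, and the floor of 3 counts as a dotted line. The groups are apart in every panel but those of Mrgpra3, where mutant 3 is at 0, and Oprm1, where mutant 2 at 1.69 CPM lies among the controls.

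Fitted over all genes with edgeR (prior count of 2), the log2 fold change, mutant minus control, ranged from 0.64 (SE 0.22) for Oprd1 to 5.95 (SE 0.76) for Mrgprd. Between these lay 0.71 (SE 0.42) for Oprm1, 1.84 (SE 0.57) for Lpar5, 2.41 (SE 0.59) for Npffr2 and 2.47 (SE 0.48) for P2ry2. Htr3b reached 4.09 (SE 0.72), Ptgir 4.38 (SE 0.77) and Mrgprx1 5.24 (SE 0.53). The median over the 10 genes was 2.81, with Mrgpra3 taken from a fit without the filter, or 2.44 with Mrgpra3 at its bound, while the median over all 17099 genes tested was 0.01. The filter kept 9 of the 10 genes. Of these 9, 7 were past an adjusted p of 0.05 in the mutant direction, where 8.62% of all genes tested were, and 6 were also past a log2 fold change of 2, where 0.953% of all genes were. In 8 of the 9 genes every mutant library was above every control, as in 19.6% of all genes. The genes were selected on this same contrast, so nothing is read from these counts. Oprm1 and Oprd1 were the tested genes not past the threshold.

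Per length of the gene, the order of the receptors differed between the genotypes. In the mutants Mrgprx1 was first at 19.3 CPM per kb (range 9.06 to 24.6), and its range did not touch that of Mrgprd, next at 3.26 CPM per kb (range 1.55 to 5.53). From Mrgprd down, each gene overlapped the next in its range over the 3 mutants. The order was Oprd1 at 1.81, Htr3b at 1.27, P2ry2 at 1.26, Ptgir at 1.02, Lpar5 at 0.730, Npffr2 at 0.720, Mrgpra3 at 0.678 and Oprm1 last at 0.327 CPM per kb. In the controls Oprd1 was first at 1.15 CPM per kb (range 0.970 to 1.44), above the range of Mrgprx1 at 0.421 (range 0.194 to 0.729). P2ry2 at 0.204 and Oprm1 at 0.195 CPM per kb came next and overlapped each other. The summed level of the 10 genes was between 7.80 and 8.29 CPM in the controls and 32.7, 76.9 and 63.0 CPM in mutants 1, 2 and 3. Mrgprx1 alone gave between 32.7% and 45.6% of the sum in the mutants. At least 3 counts were found for 5, 5 and 6 of the 10 genes in the controls and for 10, 10 and 9 in the mutants.

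The mutant libraries also differed from each other. Mutant 2 was the highest mutant for 6 of the 10 receptor genes and mutant 1 the lowest for 6, with the highest mutant between 1.42 times (Oprd1) and 3.57 times (Mrgprd) the lowest, Mrgpra3 left aside.

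Many, though not all, markers of whole DRG neurons rose with the receptors. Of 16 such markers, 15 were in the table, and they summed to between 472 and 577 CPM in controls and to 716, 1579 and 1512 CPM in mutants 1, 2 and 3, so mutant 1 was again the lowest. Of these, 11 rose in edgeR's test, 8 of them by a log2 fold change above 2, and none had an unadjusted p under 0.05 in the other direction. Without Control 2 only 5 passed, against 9 to 12 with any other library left out. Scn10a, the sodium channel of nociceptors, rose from 1.20 to 3.10 CPM in controls to 46.0, 167 and 133 CPM in mutants (log2 fold change 5.52, adjusted p = 0.00433). Prdm12, a transcription factor of the nociceptor lineage, rose by 4.82 on the log2 scale (adjusted p = 0.00588). Of the highest markers of the list, Prph, an axonal filament protein, rose by 1.35 (adjusted p = 0.0248), whereas Ret and Pou4f1 had log2 fold changes of 0.29 and 0.21 and did not pass. Isl1 (log2 fold change 1.085, adjusted p = 0.0680) and Tlx3 (-0.03, adjusted p = 0.917) did not pass in edgeR's test either. Both Scn10a and Prdm12 were above 3 counts in all control libraries. In these bulk libraries, more cells or axons of a type and more RNA per cell cannot be told apart.

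Markers of other tissues moved as well. Of 12 skeletal muscle markers 11 were tested and all 11 rose (7 in limma voom, 3 without Control 2), led in level by Acta1, the muscle actin, while Tnnc2 had no count. Their sum went from between 13.2 and 24.4 CPM to 711, 371 and 134 CPM in mutants 1, 2 and 3, so that mutant 1, the lowest for most receptors, was the highest for muscle. Of 10 Schwann cell markers tested 5 rose (none in limma voom or without Control 2, 1 without Control 1 or Control 3), with mutant 2 the highest in their sum. The sum of the central neuron markers was 1816, 1799 and 1869 CPM in the mutants, each below the lowest control at 1886 CPM. Of the 10 central neuron markers 1 fell (Slc32a1, log2 fold change -0.32, adjusted p = 0.0487) and none rose (0 fell without Control 2, Control 3, mutant 1 or mutant 2, and 2 without Control 1), with 4 lower and none higher at an unadjusted p under 0.05, and 3 lower in DESeq2 and none in limma voom. Of 9 central glia markers tested none passed in edgeR, DESeq2 or limma voom, 1 being higher at an unadjusted p under 0.05, and Opalin had at most 1 count in a library. Without the filter or without Control 3, edgeR called 1 glia marker higher, and without mutant 3 it called 2. No macrophage marker of 10 and no keratinocyte marker of 4 tested passed in edgeR (3 macrophage markers higher and 1 keratinocyte marker lower at an unadjusted p under 0.05, 2 and 1 in DESeq2, 1 and 0 in limma voom), with sums of 114 to 158 and 52.2 to 54.4 CPM in controls and of 154 to 165 and 43.8 to 57.2 CPM in mutants. Markers too low for the filter stood out in mutant 1, with 90 counts of the keratin gene Krt5 (0 or 1 in the other libraries), 33 of Trp63 (2 to 9 in the others) and 95 of the sympathetic marker Hand2 (0 in the others). Without the filter edgeR called 1 keratinocyte, 1 sympathetic and 2 macrophage markers higher. It called 1 macrophage marker higher without Control 1 or without mutant 3. Of 5 sympathetic neuron markers, Dbh had at most 3 counts in every library, and the sums lay between 4.47 and 7.78 CPM in all 6 libraries. Of 4 markers of the somatostatin itch neurons, Plxnc1 rose (log2 fold change 0.41, adjusted p = 0.0236, a call lost without Control 2 or mutant 2), while the median of the 3 tested was -0.22. Nppb, the defining peptide, had 10, 6 and 6 counts in controls and 0, 3 and 5 in mutants, each mutant below each control, and was not tested. Sst and Nts had log2 fold changes of -0.22 and -0.43 and did not pass (adjusted p = 0.252 and 0.258). Whether the tissue makeup of the libraries had a part in the receptor levels was not tested.

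**Figure D2:**
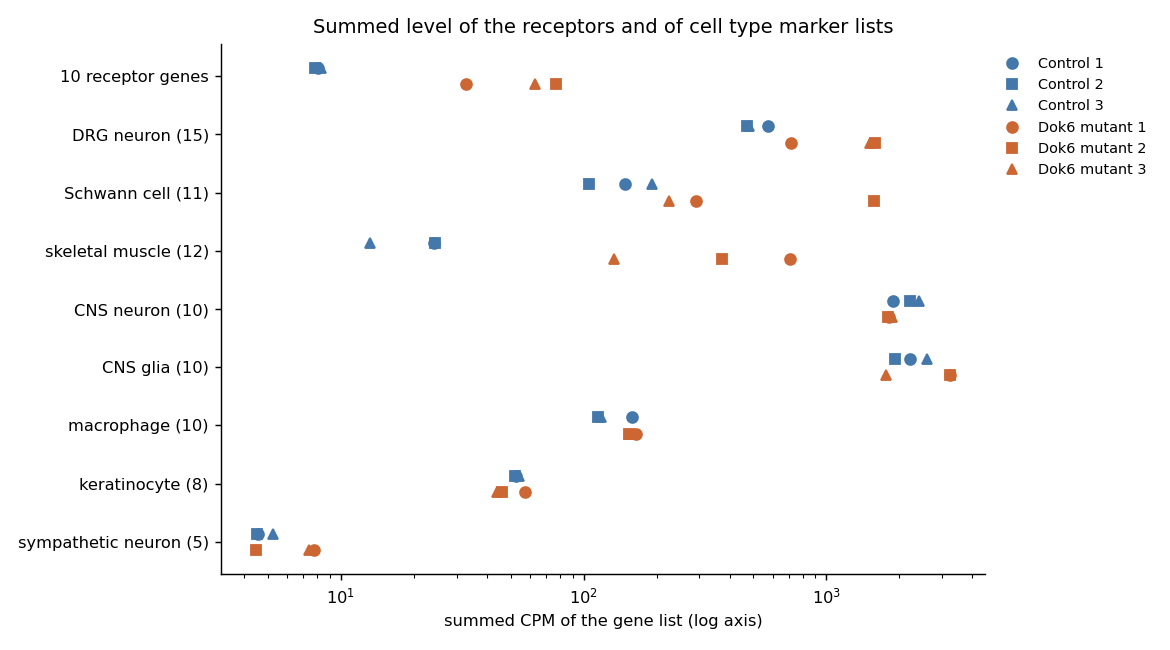
Summed CPM of the 10 receptor genes and of each marker list (number of genes in brackets) in each library, on a log axis, with controls in blue, mutants in orange, and replicates 1, 2 and 3 as circle, square and triangle. The receptors run from 7.80 to 8.29 CPM in controls and from 32.7 to 76.9 CPM in mutants, and DRG neuron, Schwann cell and skeletal muscle markers are also higher in each mutant than in any control, while the central neuron markers are lower in each mutant, at most 1869 CPM, than in any control, at least 1886 CPM.

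The receptors were next set against the DRG markers within each library. Per 1000 counts of the 15 DRG markers, 6 of the 10 receptor genes (Mrgprd, Mrgprx1, Ptgir, Npffr2, P2ry2 and Htr3b) had every mutant above every control, as did 0.807% of all genes tested, while 65.5% had every mutant below every control. Prph, Ret and Pou4f1 gave 77.8% to 81.3% of this sum in controls and 48.6% to 60.4% in mutants and changed far less than the receptors that were chosen for their rise, so nothing is read from the count. Mrgprx1 was at 0.696, 1.82 and 0.476 in controls and 14.9, 18.4 and 19.0 in mutants on this scale, whereas Oprm1, Oprd1, Lpar5 and Mrgpra3 overlapped. Per 1000 counts of Scn10a alone, a scale chosen after its values were seen, the picture differed. Mrgprx1 was then at 130, 294 and 190 in controls and 232, 174 and 215 in mutants, within the control range. Ptgir, at 0, 39.2 and 47.6 against 30.4, 23.2 and 36.5, and Htr3b, at 37.0, 39.2 and 0 against 32.7, 28.4 and 22.2, overlapped too. Mrgprd, at 0, 39.2 and 47.6 in controls and 106, 104 and 63.1 in mutants, was the 1 receptor gene with every mutant above every control, where 0.00585% of all genes tested were, itself included. Oprm1, Oprd1, Lpar5 and P2ry2 were lower in every mutant than in every control on this scale, as were 99.4% of all genes tested, since Scn10a itself is so much higher in the mutants. The control values of Mrgprd, Ptgir and Htr3b on it rest on at most 2 receptor counts per library. For Mrgprd in Control 3 it was 1 count against 21 of Scn10a. Mrgprd was chosen for its rise and the scale after its values were seen, so nothing is read from its place here.

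Other receptors of the same families were tested in the same fit. They are the family members left after the 10 genes were chosen on this contrast, on a list drawn up with earlier results known. Their share and median are therefore not independent of that choice. Of 58 such genes 37 passed the filter, 6 rose (16.2%, against 8.62% of all genes tested), 1 of them by a log2 fold change above 2 (0.953% of all genes), and the median log2 fold change was 0.20. No related gene fell in edgeR's test, where 6.01% of all genes did, although 3 had an unadjusted p under 0.05 in that direction, DESeq2 called 2 of them lower and limma voom none. Every mutant was above every control for 12 of the 37 (32.4%) and below for 3 (8.11%), where 19.6% and 18.7% of all genes were so.

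Within the Mas-related family, 17 of 19 related genes were too low to test, 7 of them at 0 counts in every library. Mrgpra1, close to Mrgpra3 in the family, was at 0 in all controls and at 9, 23 and 34 counts in the mutants, so that its mutant mean was at least 6.83-fold higher than the floor of 3 counts per control library. Mrgprf, found in smooth muscle and other non-neuronal cells, rose from 0.0573 to 0.402 CPM in controls to 2.59, 1.31 and 1.80 CPM in mutants (log2 fold change 2.34, SE 0.55, adjusted p = 0.0200 in edgeR's test). It was the 1 related gene past a log2 fold change of 2. Mrgpre, the related gene of highest level per length in this family, was at 19.1 to 22.6 CPM in controls and 23.1 to 27.0 CPM in mutants (log2 fold change 0.20, adjusted p = 0.276).

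The related opioid receptors did not pass the test. Oprl1, the nociceptin receptor, was the most abundant opioid receptor at 108 to 116 CPM in controls and 93.2 to 99.7 CPM in mutants (log2 fold change -0.20, adjusted p = 0.0905 in edgeR's test). Oprk1, the kappa receptor for dynorphin, had a log2 fold change of 0.03 (adjusted p = 0.934). For Oprl1 all mutants were below all controls, opposite in direction to Oprd1.

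Of the 8 related prostanoid receptors, Tbxa2r, the thromboxane receptor, rose by a log2 fold change of 1.44 (SE 0.36, adjusted p = 0.0281 in edgeR's test), and Ptger3, a receptor for prostaglandin E2, by 0.72 (SE 0.20, adjusted p = 0.0430). Among 5 related lysophosphatidic acid receptors, Lpar1, the one known from Schwann cells and oligodendrocytes, rose from 11.0 to 18.6 CPM in controls to 25.9, 51.1 and 23.4 CPM in mutants (log2 fold change 1.10, adjusted p = 0.0493). Of 5 P2Y receptors tested, P2ry1, a receptor for ADP, rose by 1.11 (SE 0.26, adjusted p = 0.0273), and P2ry12, the microglial receptor of highest level per length here, had a log2 fold change of 0.64 (adjusted p = 0.255). Of 11 serotonin receptors tested, Htr5a rose by 0.89 (SE 0.19, adjusted p = 0.0228), whereas Htr3a, the partner of Htr3b in the channel, was at 2.30, 4.30 and 3.43 CPM in controls and 4.25, 7.26 and 5.41 CPM in mutants (log2 fold change 0.73, adjusted p = 0.110). Htr7, the highest per length in that family, did not pass either (log2 fold change -0.33, adjusted p = 0.0527). None of the 4 related RFamide receptors passed, and Kiss1r, the highest of them per length, had a log2 fold change of -0.18 (adjusted p = 0.587). In edgeR no related gene was called higher without Control 2, 1 was without mutant 2, and 3 were without Control 1 or without mutant 1.

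**Figure D3:**
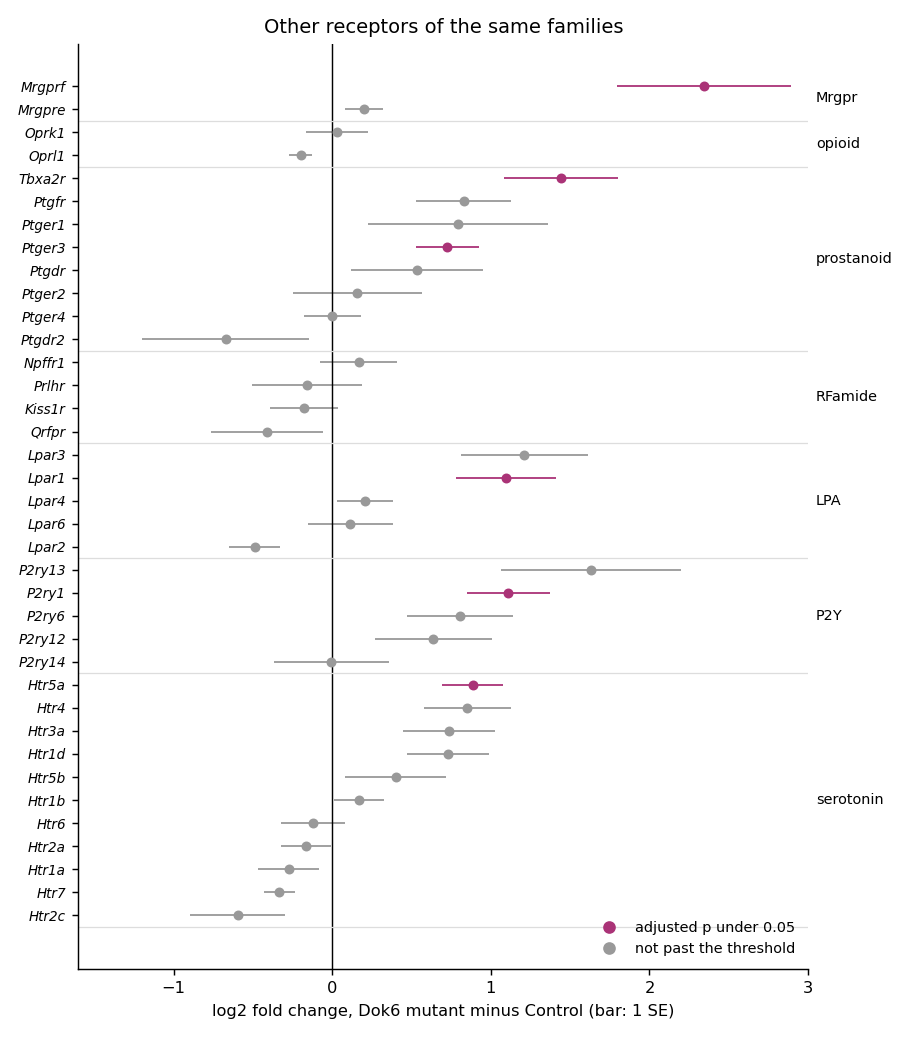
Log2 fold change, Dok6 mutant minus control, of the 37 related receptor genes tested, grouped by family, with bars of 1 SE and the 6 genes past an adjusted p of 0.05 in edgeR's test in purple. Mrgprf at 2.34 is the furthest to the right, and the opioid and RFamide families have no gene past the threshold.

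Of the genes that make ligands of these receptors or of related ones in their families, none was called higher and 3 were called lower. Of 25 ligand genes 18 were tested, none passed as higher in edgeR, DESeq2 or limma voom (1 had an unadjusted p under 0.05 in edgeR), and 3 fell (16.7%), where 8.62% of all genes were called higher and 6.01% lower. All 3 encode opioid peptide precursors, from a list of 4. Penk, the precursor of the enkephalins that act on Oprd1 and Oprm1, was at 89.4, 98.5 and 106 CPM in controls and 80.5, 78.8 and 71.8 CPM in mutants (log2 fold change -0.35, SE 0.09, adjusted p = 0.0382 in edgeR's test). Pdyn, the precursor of dynorphins, had a log2 fold change of -0.50 (SE 0.12, adjusted p = 0.0305), and Pnoc, that of nociceptin, one of -0.41 (SE 0.10, adjusted p = 0.0350). The central neuron markers moved with them, all mutant sums lying below all control sums, and among them Snap25, Gad2 and Slc32a1 had log2 fold changes of -0.42, -0.46 and -0.32. Their part in the fall of the precursors was not tested. In all 3 precursors every mutant was below every control, as in 18.7% of all genes, while none of the 3 was called without Control 2, Control 3, mutant 1 or mutant 2. Ptgds, Enpp2 and Ddc, the enzymes of highest level per length on the prostanoid, lysophosphatidic acid and serotonin lists, had log2 fold changes of 0.24, -0.09 and 0.11 and did not pass, and Npff, the neuropeptide FF gene, had 4, 6 and 7 counts in controls and 15, 12 and 9 in mutants, each mutant above each control in CPM, and was not tested. Tph2, an enzyme of serotonin synthesis, also had every mutant above every control, at 0.172 to 0.572 CPM against 0.655 to 0.689 CPM (log2 fold change 0.56, adjusted p = 0.356). Ptgs2, on the prostanoid list, had every mutant below every control, at 0.743 to 1.09 CPM in controls against 0.382 to 0.636 CPM in mutants (log2 fold change -0.735, adjusted p = 0.16 in edgeR's test).

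A list of 51 other receptors of itch and pain mediators was examined for comparison, of which 44 were tested, 7 rose (15.9%, against 8.62% of all genes) and 2 fell (4.55%, against 6.01% of all genes), with a median log2 fold change of 0.24. The genes that rose most were Gfra3, the co-receptor for artemin on nociceptors (log2 fold change 2.87, SE 0.51, adjusted p = 0.0135 in edgeR's test), and C5ar1, the complement receptor of myeloid cells (2.16, SE 0.54, adjusted p = 0.0135), the latter with at most 0.115 CPM in a control. S1pr3, a sphingosine phosphate receptor of sensory neurons and vessels, rose by 1.71 (adjusted p = 0.0122), Sstr4, a somatostatin receptor, by 1.39 (adjusted p = 0.0152), Tnfrsf1a, a receptor for tumour necrosis factor, by 1.07 (adjusted p = 0.0160), Hrh2, a histamine receptor, by 1.06 (adjusted p = 0.0475) and Il6st, the signalling subunit shared by interleukin receptors, by 0.47 (adjusted p = 0.0207). Galr2, a galanin receptor, fell by 1.07 on the log2 scale (adjusted p = 0.0270), and Crlf2, a subunit of the TSLP receptor of itch neurons, by 0.39 (adjusted p = 0.0258). Gabbr1, the most abundant per length of the list, was at 699 to 749 CPM in controls and 632 to 659 CPM in mutants (adjusted p = 0.170). Without Control 2 none of the 9 passed. Neither lower call held without Control 1, mutant 1 or mutant 2, 4 genes were called higher without mutant 2, and Hrh2 passed in 1 of the 6 fits that left out a library and had an adjusted p of 0.0520 in DESeq2.

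The genes whose pattern over the 6 libraries was most like that of the receptors were sought among 15023 other genes that reached 1 CPM in all mutant libraries, by the root mean square difference in log2 CPM centred on each gene's mean. Against the mean pattern of the 9 receptor genes in the fit, the nearest were Tspan8 (0.224), Ppm1j (0.248), Samsn1 (0.276), Antxr2 (0.278), Acpp (0.302), Slc6a19 (0.327), Cdh1 (0.347), Trpv1 (0.356), Dock5 (0.369) and Piezo2 (0.387), where the median gene stood at 1.55. Acpp encodes a phosphatase found in nonpeptidergic nociceptors, Trpv1 the capsaicin channel and Piezo2 the touch channel of sensory neurons. By the construction of the search these genes follow the mean of the receptors, whose centred level was lowest in the controls and, of the mutants, lowest in mutant 1. Oprm1, Npffr2 and Lpar5 departed from that mean, since mutant 1 was not their lowest mutant.

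Single receptors had different neighbours. Both Mrgprd and Mrgprx1 were nearest to Tmem233, Scn10a and Prdm12, with differences of 0.515, 0.632 and 0.634 for Mrgprd and of 0.325, 0.337 and 0.510 for Mrgprx1. Ptgir was nearest to Prdm12 (0.275), Tyrp1 (0.290) and Pirt (0.329), a membrane protein of sensory neurons. Htr3b was nearest to Gm13425 (0.208), Myo1a (0.227) and A3galt2 (0.278), and P2ry2 to Gm13111 (0.0862), F730016J06Rik (0.253) and Cdh1 (0.266). Npffr2 had Fosb (0.346), Fam89a (0.381) and Ppef1 (0.420) as its neighbours. Oprd1 was nearest to Prc1 (0.0630), Snupn (0.0746) and Ube2c (0.0758), of which Prc1 and Ube2c act in cell division, Oprm1 to Adamtsl4 (0.0991), Pecam1 (0.119), an endothelial protein, and Abcc6 (0.121), and Lpar5 to Smtn (0.170), a smooth muscle protein, Entpd2 (0.190) and Ccnd1 (0.194). A small difference is easier to reach for a gene of small amplitude, and the order of likeness is a description of these 6 libraries.

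**Figure D4:**
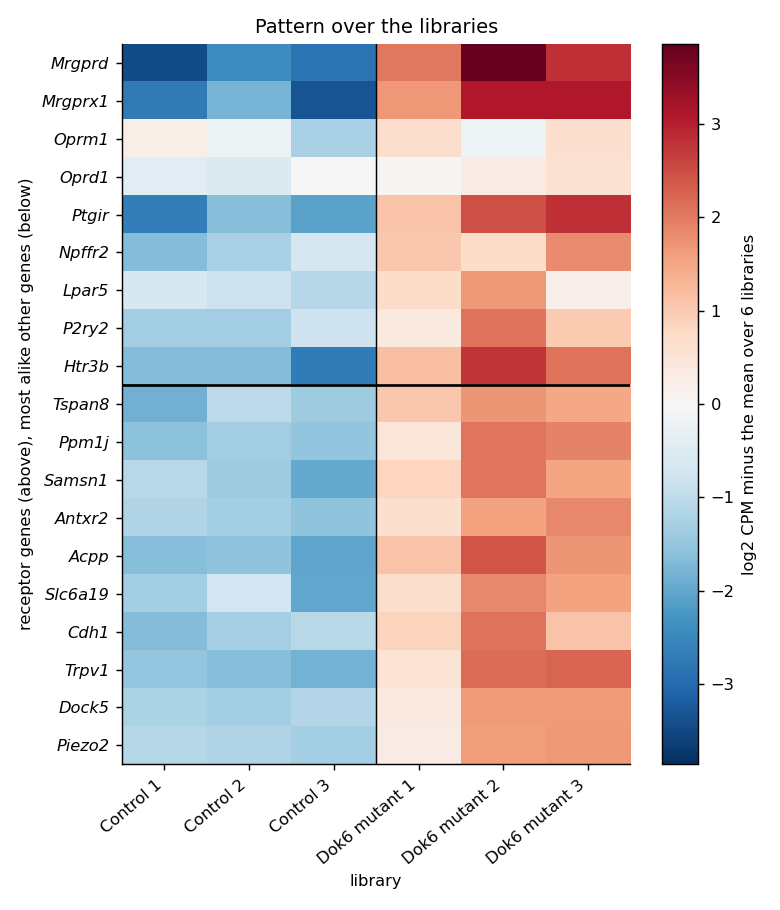
Log2 CPM of each gene minus its mean over the 6 libraries, in colour, for the 9 receptor genes in the fit (above the line) and the 10 other genes most like their mean pattern (below the line). Mrgprd spans the widest range, from -3.45 in Control 1 to 3.86 in mutant 2, Oprm1 and Oprd1 stay pale, and in all 10 other genes mutant 1 is the palest mutant.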

How the data were processed

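Total RNA of 6 sciatic nerve libraries was sequenced by the authors, and the deposited table holds raw read counts per gene; the submitters' processing notes name mm10, while the aligner and counter are not given in the sources used here. Labels and methods name different versions of the NEBNext Ultra kit, so the use of strand is uncertain. Groups follow the genotype in the labels. No library repeated another.

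Counts were fitted in edgeR 4.0.16 (filterByExpr, TMM, quasi-likelihood F test, Benjamini-Hochberg adjustment over 17099 genes, prior count of 2 for log2 fold changes), called at an adjusted p of 0.05 after a test on simulated counts. DESeq2 1.42.0, limma voom 3.58.1, other scalings and filters, a replicate block, a prior count of 0.5 and leaving out each library were alternatives. Ratios pool the 3 libraries of a group, with 95% exact (Clopper-Pearson) intervals. The labels give each library a mouse number, so replicates were taken as separate mice. The receptor genes, the gene lists (other family receptors, ligands, itch and pain receptors, cell type markers) and the naming rule were chosen with earlier results of these data known. Named were all 10 receptors, every listed gene past the threshold, the highest per length in each family, the highest and the undetected cell type markers, and the 10 genes nearest in pattern (3 for each receptor). Slc32a1, Snap25, Syt1, Gad2, Sox10, S100b, Isl1, Tlx3, Krt5, Trp63, Hand2, Sst, Nts, Tph2, Ptgs2, Plxnc1, Nppb, Htr3a, Oprk1, Npff and Mrgpra1 were named after their values were seen. Some listed markers are not reported here and were left out of the sums. Annotation was GENCODE M21, and transcripts were compared with BLAST 2.17.0.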

Additional observations from a re-analysis of the deposited data

How the results depend on the processing

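No receptor gene's log2 fold change turned direction in edgeR under another scaling, filter or prior count, with the replicate block or with 1 library left out. The median over the 10 genes (2.81) was 3.90 with a prior count of 0.5 and lay between 2.36 (without mutant 2) and 3.14 with 1 library left out. With that prior count, Mrgprd, Ptgir, Htr3b and Mrgpra3 stood at 6.92, 5.33, 4.90 and 5.04, a change that follows from their controls near 0. The same-numbered controls and mutants did not deviate together (correlations of -0.01, -0.17 and -0.24), so the replicate numbers give no pairing. With a replicate block 1 related receptor was higher in place of 6, 3 itch and pain receptors were higher in place of 7 and 0 lower in place of 2. Over all genes 432 were higher and 130 lower in place of 1474 and 1028. With the block 0 ligand genes were lower in place of 3, and the calls of Slc32a1 and Plxnc1 were lost. DRG neuron markers called higher were 9 in place of 11, skeletal muscle markers 10 in place of 11 and Schwann cell markers 1 in place of 5.

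With 1 library left out, the related receptors called higher ranged from 0 (without Control 2) to 8, with 3 without Control 1 or mutant 1 and 1 without mutant 2, and those called lower from 0 to 2 (without mutant 3). Those above a log2 fold change of 2 ranged from 0 (without Control 2) to 3 (without Control 3), with 2 without Control 1, and were 2 without the filter or at a mean count of at least 10. Lower related receptors were 2 in DESeq2 and 1 with RLE scaling. The itch and pain receptors called higher ranged from 0 (without Control 2) to 10, with 4 without mutant 2, and those called lower from 0 to 3, with 1 without Control 3 and 0 without Control 1, Control 2, mutant 1 or mutant 2. Over all genes, edgeR called 56 higher and 12 lower without Control 2, 549 and 174 without mutant 2, and 695 and 193 without mutant 1; why Control 2 weighs so much was not tested. Dok6 kept its direction and its side of the threshold in all of these fits, with adjusted p at most 0.0495. Lpar1, the weakest call, had adjusted p-values between 0.00164 and 0.169 over the alternatives. C5ar1 had no adjusted p in DESeq2. Receptors with fewer than 5 control counts per library are limited by depth, since 1 count more or less moves their ratio.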
